A study of Homo sapiens with 4 samples.

Results

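The genes that encode the main cyclins and kinases of the cell cycle were followed in TE5 cells, an established esophageal squamous cell carcinoma line, after knockdown of NUP153. They were taken from the deposited count table as the rows whose gene symbol is CCND1, CCND3, CCNE1, CCNE2, CCNA2, CCNB1, CDK1, CDK2, CDK4 or CDK6, which gave 10 of 56657 rows, 6 cyclins and 4 kinases. RNA was sequenced from 2 libraries of cells with hairpin RNA against NUP153 (shNUP153, labelled NUP153 knockdown) and from 2 libraries of cells with a control hairpin (shControl, labelled WT). Both groups are the same line, both were infected with lentivirus, selected with puromycin and labelled day 7. NUP153 encodes a protein of the nuclear basket of the nuclear pore, and the comparison asks how its depletion changes gene expression. No label says that replicates are separate infections, so p-values reflect the scatter among these 4 libraries, part of which may be technical. The sample descriptions of the knockdown libraries end in different suffixes, g1 and g2. Whether these mark different hairpins was not given in the sources used here; if they do, the SD and SE of shNUP153 include a difference between hairpins.

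Cyclins are regulatory subunits without which the cyclin-dependent kinases (CDKs) are inactive. D-type cyclins with CDK4 or CDK6 start the phosphorylation of the retinoblastoma protein in G1, E-type cyclins with CDK2 carry it on into S phase, cyclin A acts with CDK2 and then CDK1, and cyclin B with CDK1 drives mitosis. Transcription of cyclin D1 follows growth factor signalling, whereas cyclins E, A and B and CDK1 are transcribed periodically under E2F factors, the DREAM and MYBL2-FOXM1 complexes, which act through the cell cycle homology region (CHR), and the CCAAT-box factor NF-Y. In squamous carcinomas the CCND1 locus is known for frequent amplification.

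Knockdown cells held more CCND1 and CDK6 RNA and less RNA of CCND3, CCNE1, CCNA2, CDK1, CDK2 and CDK4, while CCNE2 and CCNB1 did not pass the test. All 10 genes passed the filter on low counts, with 378 to 11935 counts per library. By edgeR's quasi-likelihood test with Benjamini-Hochberg adjustment over all genes and a threshold of 0.05, 2 of the 10 rose and 6 fell. Of all 16817 genes tested, 15% rose and 17.4% fell (32.4% in all), so calls were common in these libraries. With total-count scaling 62.7% of all calls were higher, against 46.3% with the TMM scaling used here, and again 2 of the 10 genes rose and 6 fell. The median log2 fold change was −0.24 over the 10 genes and 0.005 over all genes tested. RNA was measured in bulk, so fewer cells in a cell cycle phase and less RNA per cell cannot be told apart.

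The libraries held 25247932 and 23396626 counts in shNUP153 and 22606593 and 27396268 in shControl. NUP153 itself measured 67.9 and 81.8 CPM (counts scaled to library size with edgeR's TMM factors) in shNUP153, against 148.7 and 141.4 CPM in shControl, 1.94-fold lower (log2 fold change −0.96, SE 0.06, edgeR adjusted p = 1.06e-14). Of 8 squamous epithelial marker genes, KRT14 alone stayed under 1 CPM in every library. All 5 fibroblast and all 5 leukocyte markers were under 1 CPM. Of 4 endothelial markers PECAM1 and KDR were under 1 CPM, whereas CDH5 measured 22.7 and 22.2 CPM in shNUP153 and 11.3 and 9.63 CPM in shControl. The summed endothelial level was 24 to 25.1 CPM in shNUP153 and 11.1 to 12.3 CPM in shControl, and its part in the results below was not tested.

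Promoter sequences from RefSeq (GRCh38.p14) were found for 7 of the 10 genes: CCND3, CCNE1, CCNA2, CCNB1, CDK1, CDK4 and CDK6. In the 250 bases before each annotated start, both strands were searched for 3 motifs: E2F (TTTCCCGC, TTTGGCGC, TTTGCCGC or TTTCGCGC), CHR (TTTGAA) and the CCAAT box (CCAAT). Of 35116 such windows over all genes, 2.79% held an E2F word, 13.3% a CHR word and 32% a CCAAT word. The stretches below are shown because they put the start of a gene that fell (CCNA2), of CDK1 and of CCNB1, whose products act together in mitosis, beside that of a gene that rose (CDK6). Capitals mark the matches, and ATTGG is CCAAT read on the other strand. The CCNA2 and CDK6 stretches end at the outermost exon of the GENCODE annotation, whereas for CDK1 and CCNB1 only bases around matches are shown. The CDK1 stretches lie before its downstream start and leave out its E2F word and 1 of its CCAAT words.
CCNA2, chr4:121823934-121824133, minus strand: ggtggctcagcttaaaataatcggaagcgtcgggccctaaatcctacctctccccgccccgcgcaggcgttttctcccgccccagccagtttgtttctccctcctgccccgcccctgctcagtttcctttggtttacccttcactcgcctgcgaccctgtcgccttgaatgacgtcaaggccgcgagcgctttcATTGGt
CCNB1, chr5:69167051-69167080, plus strand: gaccggcagccgCCAATgggaagggagtga
CCNB1, chr5:69167083-69167112, plus strand: gccacgaacaggCCAATaaggagggagcag
CDK1, chr10:60778393-60778422, plus strand: ggctctgATTGGctgcTTTGAAagtctacg
CDK1, chr10:60778448-60778477, plus strand: ccctttagcgcggtgagTTTGAAactgctc
CDK6, chr7:92836595-92836823, minus strand: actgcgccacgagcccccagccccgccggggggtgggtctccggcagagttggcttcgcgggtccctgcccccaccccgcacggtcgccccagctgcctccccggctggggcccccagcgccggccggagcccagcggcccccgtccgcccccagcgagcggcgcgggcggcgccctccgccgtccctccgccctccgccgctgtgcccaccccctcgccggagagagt
The window of the downstream CDK1 start held 1 E2F word, 2 CHR words and 2 CCAAT words, and that of the upstream start 1 CHR word and 1 CCAAT word. CCNB1 held 2 CCAAT words and CCNA2 held 1, and neither held a CHR or E2F word in these letters. Other spellings of the motifs were not searched, so a missing match does not show that a promoter lacks the element. Of 3 CCND3 windows, 2 held 1 CCAAT word each and no other match. None of the 3 motifs was matched in the windows of CCNE1, CDK4 or CDK6. CCNE1 and CDK4 fell and CDK6 rose. CDK6 was the only risen gene of the 10 with a window, and whether matches go with direction was not tested. A match is a description of the sequence and not evidence of binding.

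The D-type cyclins CCND1 and CCND3 went in opposite directions, while the third, CCND2 (given below), did not pass the test. CCND1, which encodes cyclin D1, measured 459.6 and 444.6 CPM in the shNUP153 libraries and 282.4 and 276.3 CPM in the shControl libraries. Both knockdown libraries lay above both control libraries, and the gap was many times the spread within either group. The means were 452.1 ± 10.6 CPM in shNUP153 and 279.3 ± 4.3 CPM in shControl (SD, n = 2 each), 1.62-fold higher (log2 fold change 0.69, SE 0.04, edgeR adjusted p = 8.79e-15). Of all genes tested, 93.9% had a lower log2 fold change than CCND1. CCND3, which encodes cyclin D3, measured 108.2 and 109.1 CPM in shNUP153, against 126.8 and 139.5 CPM in shControl. The groups did not overlap, although the shControl libraries lay further apart than the shNUP153 ones. CCND3 fell by 0.29 on the log2 scale (SE 0.05, edgeR adjusted p = 4.37e-05), with means of 108.7 ± 0.639 CPM in shNUP153 and 133.2 ± 9.02 CPM in shControl (SD, n = 2 each).

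**Figure D1:**
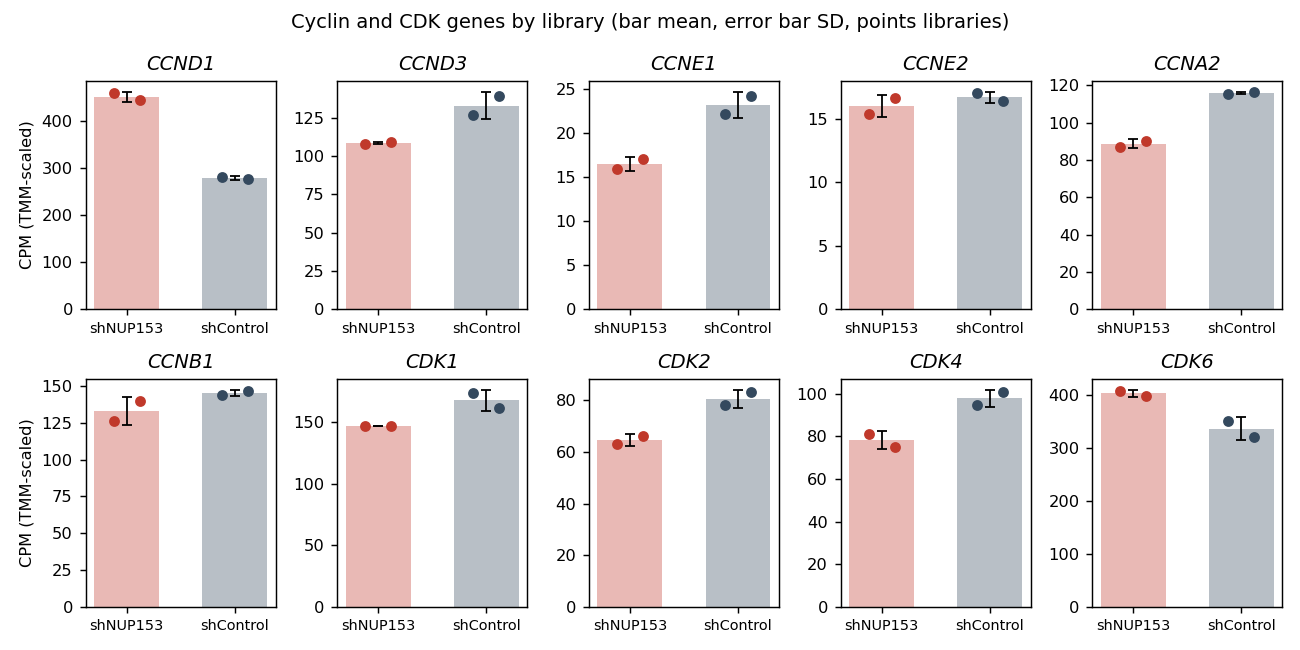
Level of each of the 10 genes in CPM scaled with TMM factors, by group; bars are means, error bars SD (n = 2) and points single libraries. CCND1 and CDK6 are higher in both shNUP153 libraries, the CCNE2 points overlap between groups, and the other 7 genes are lower in both shNUP153 libraries.

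The kinase partners of the D-type cyclins diverged as well. CDK6 measured 408.4 and 398.6 CPM in shNUP153 and 352 and 321.1 CPM in shControl. It rose 1.2-fold, with means of 403.5 ± 6.92 CPM in shNUP153 and 336.6 ± 21.9 CPM in shControl (SD, n = 2 each; log2 fold change 0.26, SE 0.05, edgeR adjusted p = 3.23e-05). The lowest shNUP153 library lay above the highest shControl library. CDK4, which shares the D-type cyclins and the target RB with CDK6, measured 81.2 and 75.1 CPM in shNUP153 and 94.8 and 100.7 CPM in shControl. CDK4 was thus lower in both knockdown libraries and fell 1.25-fold (log2 fold change −0.32, SE 0.06, edgeR adjusted p = 2.84e-05). The exons of CDK4 overlap those of TSPAN31 on the opposite strand over 1369 of 3168 bases, and TSPAN31 was higher in the knockdown (14.6 and 13.5 CPM in shNUP153, 9.54 and 11.1 CPM in shControl; log2 fold change 0.44, edgeR adjusted p = 0.00228). Since the strand of counting is not stated, reads of the pair cannot be told apart in the shared stretch. CCND1 overlaps LTO1 over 497 of 4830 bases, and LTO1 did not pass the test (log2 fold change 0.08, edgeR adjusted p = 0.35).

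Of the E-type cyclins, which bind CDK2 at the start of S phase, CCNE1 was lower in the knockdown and CCNE2 was not distinguishable. CCNE1 measured 15.9 and 17.1 CPM in shNUP153 and 22.2 and 24.2 CPM in shControl. Every shNUP153 value lay below every shControl value. CCNE1 fell 1.41-fold, the largest fall among the 10 genes (log2 fold change −0.49, SE 0.09, edgeR adjusted p = 5.29e-05). CCNE2 measured 15.4 and 16.6 CPM in shNUP153 and 17.0 and 16.4 CPM in shControl, and here the groups overlapped. Its log2 fold change of −0.06 had a 95% interval of −0.26 to 0.14 (SE 0.10, edgeR adjusted p = 0.683). The sign of the CCNE2 value turned with total-count scaling. Of the exonic bases of CCNE2, 1629 of 4397 overlap INTS8 on the opposite strand. INTS8 measured 51.6 and 53.5 CPM in shNUP153 and 61.5 and 59.4 CPM in shControl (log2 fold change −0.20, edgeR adjusted p = 0.0107). CDK2, the kinase of both E-type cyclins and of cyclin A, measured 62.9 and 66.3 CPM in shNUP153, against 78.2 and 83.1 CPM in shControl. It was lower in both knockdown libraries, by 1.25-fold (log2 fold change −0.32, SE 0.06, edgeR adjusted p = 4.53e-05).

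Of the genes that act from S phase to mitosis, CCNA2 and CDK1 fell and CCNB1 did not pass the test. CCNA2, which encodes cyclin A2, measured 86.9 and 90.4 CPM in shNUP153 and 115.6 and 116.4 CPM in shControl. The groups were far apart for the spread within them, with a 1.31-fold fall (log2 fold change −0.39, SE 0.05, edgeR adjusted p = 4.05e-07). CCNA2 shares 254 exonic bases with EXOSC9 on the opposite strand, which fell by 0.26 on the log2 scale (edgeR adjusted p = 0.00937). CDK1, the mitotic kinase, measured 147.1 and 147 CPM in shNUP153 and 174 and 161.8 CPM in shControl. The groups did not overlap and CDK1 fell 1.14-fold (log2 fold change −0.19, SE 0.05, edgeR adjusted p = 0.00318), but the call was lost when either shNUP153 library was left out (edgeR adjusted p = 0.0674 without shNUP153 replicate 1, 0.0677 without shNUP153 replicate 2). CCNB1, which encodes the cyclin partner of CDK1, measured 126.5 and 140 CPM in shNUP153 and 143.9 and 146.9 CPM in shControl. Both shNUP153 values lay below both shControl values, the nearer one by less than the gap between the shNUP153 libraries. Its log2 fold change of −0.13 (SE 0.05, 95% interval −0.23 to −0.02 before adjustment) did not pass (edgeR adjusted p = 0.0616). CCNB1 passed without shControl replicate 1 (log2 fold change −0.15, edgeR adjusted p = 0.0253), without shNUP153 replicate 2 (−0.20, adjusted p = 0.0498) and with no filter on low counts (adjusted p = 0.0484), and was furthest from the threshold without shNUP153 replicate 1 (−0.06, adjusted p = 0.628).

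For 9 of the 10 genes the shNUP153 values all lay on 1 side of the shControl values, 2 of them higher and 7 lower. The same held for 64.4% of all genes tested (32.2% higher, 32.2% lower).

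**Figure D2:**
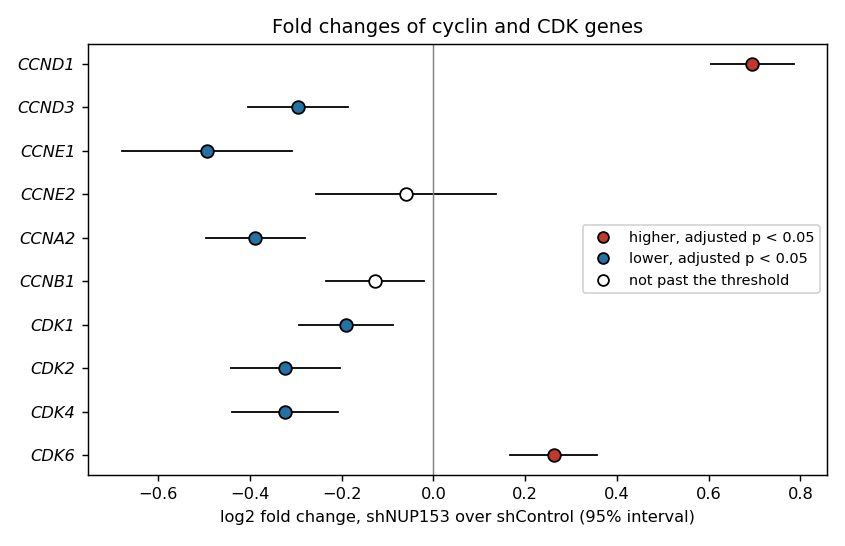
Log2 fold change (shNUP153 over shControl) of each gene with its 95% interval from edgeR's fit, before adjustment for the number of genes tested; filled points passed an adjusted p of 0.05. CCND1 stands at 0.69 and CDK6 at 0.26, the 6 genes that fell lie between −0.49 and −0.19, and the open points are CCNE2 and CCNB1.

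Ratios between genes within a library do not depend on how libraries are scaled, so 5 pairs with related functions were compared in this way. The count of CCND1 was 4.25 and 4.07 times that of CCND3 in shNUP153, against 2.23 and 1.98 times in shControl. That is a difference of 0.99 in the log2 ratio (2.06 ± 0.04 in shNUP153 and 1.07 ± 0.12 in shControl, SD, n = 2 each). The balance of these D-type cyclin RNAs thus lay further toward CCND1 in both knockdown libraries. CDK6 had 5.03 and 5.31 times the counts of CDK4 in shNUP153 and 3.71 and 3.19 times in shControl, a log2 difference of 0.59. CCNE1 and CCNE2 had near equal counts in shNUP153 (ratios of 1.03 and 1.03), whereas CCNE1 led in shControl (1.30 and 1.48), a log2 difference of −0.43. CCNB1 to CCNA2 was 1.46 and 1.55 in shNUP153 and 1.24 and 1.26 in shControl, a log2 difference of 0.26. In these 4 pairs the groups did not overlap. How often other gene pairs separate in this way was not computed, and of single genes tested 64.4% did. The ratios use the same counts as the fold changes above, so they are not separate evidence. CDK1 to CDK2 was 2.34 and 2.22 in shNUP153 and 2.23 and 1.95 in shControl, and there the groups overlapped. Its log2 difference of 0.13 was 0.033 without shControl replicate 2 and 0.23 without shControl replicate 1. With 2 libraries per group a two-sided exact permutation test cannot give less than p = 0.333, which was the value of the 4 pairs that did not overlap (0.417 after Benjamini-Hochberg adjustment over the 5 pairs), and p = 0.667 for CDK1 to CDK2. No pair could pass the test at this size. A ratio does not show which of its 2 RNAs differed.

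**Figure D3:**
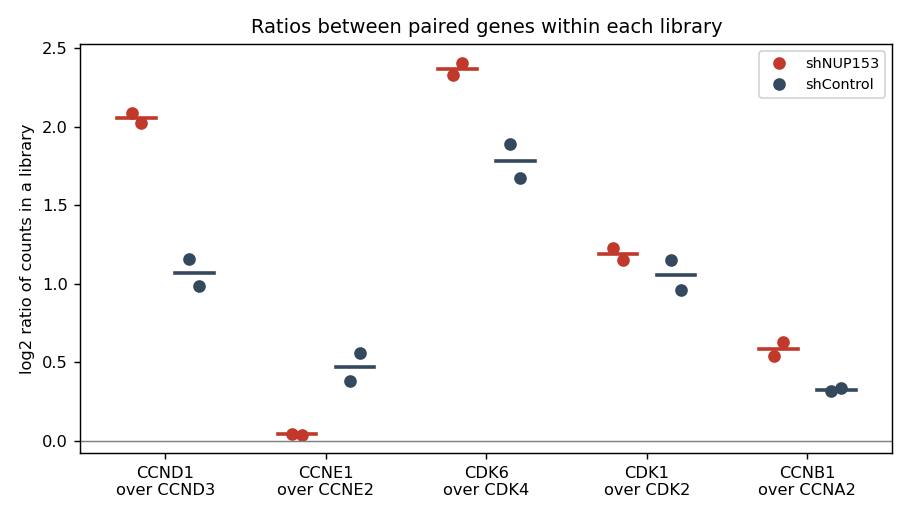
Log2 ratio of the raw counts of 2 genes within each library (points) with the group mean (lines), shNUP153 left of shControl for each pair. The CCND1 to CCND3 ratio averages 2.06 in shNUP153 and 1.07 in shControl, and the points overlap only for CDK1 over CDK2.

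Levels were compared between genes per kilobase of merged exons (GENCODE 29). By group mean CCND1 was the highest of the 10 in both groups, with libraries at 95.2 and 92 CPM per kilobase in shNUP153 and 58.5 and 57.2 in shControl. Next came CCNB1, at 49.5 and 54.7 in shNUP153 and 56.3 and 57.4 in shControl, so that CCND1 and CCNB1 were about level in the controls and apart in the knockdown. In shNUP153 the means then ran CDK1 (37.4), CDK6 (32.9), CCNA2 (31.7), CDK4 (24.7), CCND3 (18.7) and CDK2 (16.6). In shControl they ran CDK1 (42.7), CCNA2 (41.5), CDK4 (30.9), CDK6 (27.5), CCND3 (22.9) and CDK2 (20.7). CDK6 thus stood above CDK4 in shNUP153 and below it in shControl. The E-type cyclins were lowest: CCNE1 averaged 6.48 CPM per kilobase in shNUP153 and 9.1 in shControl, and CCNE2 averaged 3.65 in shNUP153 and 3.8 in shControl. Neighbouring means such as CDK6 and CCNA2 in shNUP153, or CDK1 and CCNA2 in shControl, differed by no more than libraries of a group did for 1 of the genes. Divided by the longest coding transcript instead, CCND1 was highest in shNUP153 (105), whereas in shControl CDK1 (86.2) and CCNB1 (67) stood above CCND1 (64.9). With that length CDK6 stayed below CDK4 both in shNUP153 (34.7 and 37.6) and in shControl (29 and 47.1). The order of neighbours therefore depends on the length used.

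Genes that act on these cyclins and kinases were read from lists in the same fit. Each list count stands beside the shares of all genes tested, of which 15% rose and 17.4% fell. These shares vary with abundance, for which the lists were not matched. In the highest of 10 equal bins by abundance 274 of 1682 genes rose and 714 fell, and in the lowest 137 of 1681 rose and 28 fell. The CDK inhibitors bind the kinases or their cyclin complexes. Of 7 tested, 5 rose, 1 fell and 1 did not pass by edgeR, with a median log2 fold change of 0.45. DESeq2 called 4 higher and 1 lower. CDKN2B, which encodes the CDK4 and CDK6 inhibitor p15, measured 43.9 and 40.0 CPM in shNUP153 and 16.0 and 16.4 CPM in shControl (log2 fold change 1.37, edgeR adjusted p = 1.37e-15). CDKN1A (p21) and CDKN1B (p27), which bind cyclin-CDK2 complexes, rose by 0.97 and 0.42 on the log2 scale (edgeR adjusted p = 7.57e-18 and 1.62e-06). CDKN2C (p18), another CDK4 and CDK6 inhibitor, fell by 0.51 on the log2 scale (edgeR adjusted p = 7.35e-07). CDKN1C, at under 1 CPM, did not pass (log2 fold change 0.28, edgeR adjusted p = 0.69).

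Of 11 other cyclins tested, 2 rose, 2 fell and 7 did not pass, with a median log2 fold change of 0. Both counts lie near the shares of all genes tested (15% rose, 17.4% fell). CCNB2, a second B-type cyclin, measured 72.1 and 74.7 CPM in shNUP153 and 95.4 and 97.7 CPM in shControl (log2 fold change −0.40, edgeR adjusted p = 6.12e-07). CCNG1, a p53 target, fell by 0.54 on the log2 scale (edgeR adjusted p = 2.33e-09), while its relative CCNG2, at 5.58 and 5.51 CPM in shNUP153 and 3.20 and 3.18 CPM in shControl, rose by 0.80 (edgeR adjusted p = 0.000513). CCNI rose by 0.20 (edgeR adjusted p = 0.00136), a call lost without shNUP153 replicate 2 (edgeR adjusted p = 0.08). The third D-type cyclin, CCND2, was named after its values were seen. It measured 154.8 and 142.7 CPM in shNUP153 and 129.3 and 142.7 CPM in shControl and did not pass (log2 fold change 0.13, edgeR adjusted p = 0.0673).

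Of 14 genes for CDK activation and phosphorylation, 0 rose and 4 fell by edgeR, with a median of −0.16. DESeq2 also called 0 higher, and 0 were higher at an unadjusted p under 0.05, against 3319 of all 16817 genes tested. CDC25A came near that limit (log2 fold change 0.12, 95% interval −4e-04 to 0.24 before adjustment, edgeR adjusted p = 0.123). With only genes at a mean of 5 CPM or more, 1 of 13 genes of the list rose and 4 fell, so the 0 depended on the filter. PKMYT1, a kinase that inhibits CDK1, fell by 0.39 on the log2 scale (edgeR adjusted p = 1.17e-06). PLK1, which promotes mitotic entry, fell by 0.20 (edgeR adjusted p = 0.00363), and the checkpoint kinase gene CHEK1 by 0.19 (edgeR adjusted p = 0.00712). CDKN3, a CDK phosphatase, fell by 0.19 (edgeR adjusted p = 0.0191). Without shNUP153 replicate 1 the calls for PLK1 (edgeR adjusted p = 0.265), CHEK1 (0.0792) and CDKN3 (0.228) were lost, and without shNUP153 replicate 2 those for CHEK1 (0.11) and CDKN3 (0.0819). CDKN3 also missed the threshold without shControl replicate 1 (0.0737), with DESeq2 (0.0777) and with total-count scaling (0.131), as did CHEK1 with that scaling (0.076), under which 3 genes of the list rose and 2 fell.

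Of 32 genes for ubiquitin ligases that act on cyclins and CDK inhibitors, 4 rose and 15 fell, with a median of −0.13. SKP2, the F-box protein that targets p27, measured 78.2 and 79.4 CPM in shNUP153 and 116.9 and 119.9 CPM in shControl (log2 fold change −0.59, edgeR adjusted p = 6.38e-11). FBXO4, another F-box protein, fell by 0.63 (edgeR adjusted p = 1.01e-05). The 4 genes that rose were FBXO31 (log2 fold change 0.37, edgeR adjusted p = 4.07e-05), UBE2D1 (0.32, 0.00503), AMBRA1 (0.22, 0.0378) and ANAPC13 (0.17, 0.0329). Genes of this list were not grouped by the cyclin they act on, nor tested as a set. The cullin gene CUL4B fell by 0.33 and CDC27, a subunit of the anaphase-promoting complex, by 0.31 (edgeR adjusted p = 2.14e-05 and 3.36e-05). Total-count scaling gave 5 higher and 9 lower genes in this list. The counts were 1 higher and 6 lower when shNUP153 replicate 1 was left out, and 2 higher and 9 lower when shNUP153 replicate 2 was.

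Among RB, E2F and DREAM genes, which control transcription of the cyclins, 2 of 19 tested rose and 10 fell, with a median of −0.22. MYBL2, which binds the promoters of mitotic genes, measured 462.7 and 477.3 CPM in shNUP153 and 625.2 and 626.6 CPM in shControl (log2 fold change −0.41, edgeR adjusted p = 1.28e-09). E2F8 fell by 0.72, the activator E2F2 by 0.46 and RBBP4 by 0.34 (edgeR adjusted p = 2.48e-07, 4.16e-06 and 2.17e-06). The 2 genes that rose were E2F6 (log2 fold change 0.53, edgeR adjusted p = 0.000184) and E2F7 (0.30, 0.000224). E2F1 (−0.12, edgeR adjusted p = 0.111) and E2F3 (0.11, 0.203) did not pass, so the E2F genes did not move in 1 direction. LIN37 was too low to test.

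Of 16 tested cyclins, CDKs and partners with a role in transcription, 3 rose, 1 fell and 12 did not pass, with a median of 0.01. Over all genes tested 15% rose and 17.4% fell, so calls were not more common in this list. CDK7, CCNH and MNAT1, which form the CDK-activating kinase, are counted both here and among the CDK activators, and none of the 3 passed. With total-count scaling 5 genes of this list rose and 0 fell, and CDK8 did not pass (edgeR adjusted p = 0.139). CCNL1 rose by 0.21, CDK10 by 0.18 and CCNL2 by 0.17, and CDK8 fell by 0.19 (edgeR adjusted p = 0.00113, 0.0128, 0.0224 and 0.0232). Each of these 4 calls was lost without shNUP153 replicate 2 (edgeR adjusted p = 0.0712, 0.249, 0.207 and 0.064 in that order), and those of CDK10 (0.056), CCNL2 (0.137) and CDK8 (0.296) also without shNUP153 replicate 1. Without shControl replicate 1 CCNL2 (0.0701) and CDK8 (0.0768) did not pass, nor did they with DESeq2 (0.0754 and 0.0934), and CCNL2 did not with no filter on low counts (0.0647).

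Of 10 proliferation markers 0 rose and 9 fell by edgeR, with a median of −0.32. None was higher with DESeq2 either (0), or at an unadjusted p under 0.05 in edgeR (0). The helicase subunit gene MCM6 measured 155.9 and 154.7 CPM in shNUP153 and 248.7 and 250.5 CPM in shControl (log2 fold change −0.68, edgeR adjusted p = 5.66e-14). MCM2 fell by 0.59, the sliding clamp gene PCNA by 0.55 and TYMS by 0.48 (edgeR adjusted p = 1.06e-12, 1.87e-11 and 3.02e-07). AURKA, a mitotic kinase, measured 164 and 166.8 CPM in shNUP153 and 167 and 155.3 CPM in shControl and did not pass (log2 fold change 0.04, edgeR adjusted p = 0.606). By abundance, CCND1, CCNB1, CDK1 and CDK6 lie in the highest of 10 equal bins of all genes tested, where 274 of 1682 genes rose and 714 fell. CCND3, CCNA2, CDK2 and CDK4 lie in the next bin, where 329 of 1682 rose and 496 fell. CCNE1 and CCNE2 lie in the sixth, where 268 of 1682 rose and 317 fell.

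**Figure D4:**
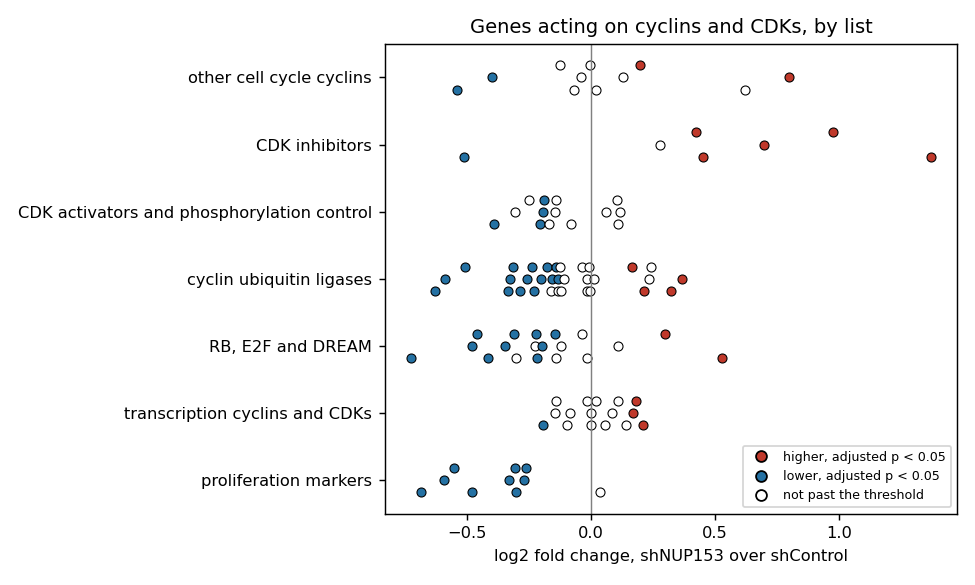
Log2 fold change (shNUP153 over shControl) of each tested gene in 7 lists, 1 point per gene, offset vertically for legibility; filled points passed an adjusted p of 0.05. CDK inhibitors lie mostly to the right (5 of 7 higher), proliferation markers mostly to the left (9 of 10 lower), and the transcription cyclins and CDKs lie near 0.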

How the data were processed

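The authors deposited 1 table of whole-number counts per gene and library, per the file headers 2 columns for the knockdown and 2 for the control, and a log2 ratio and a p-value that were not used in any test. The file name says FPKM, but the values are whole and the library totals differ, so raw counts were assumed. The deposited log2 ratio of each of the 10 genes equals that of the mean counts, so the authors did not scale it for depth. The submitters' processing notes name kallisto, DESeq2, Bowtie2, deepTools and hg19; which tool counted, and whether by strand, was not given in the sources used here.

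Of 56657 rows, filterByExpr (minimum count 10, minimum total 15) kept 16817. Differences were tested with edgeR 4.0.16 (R 4.3.3), TMM scaling, the quasi-likelihood test, two-sided, with adjustment over all genes tested. SE is the log2 fold change over the square root of F. Each gene has 2 residual degrees of freedom, and edgeR moderates its spread with that of other genes. Totals were 22606593 to 27396268 counts. Replicates differed by more than sampling noise (chi-square per gene 3.09 in shNUP153 and 3.57 in shControl, over genes with 20 or more counts). Counts were also simulated for these 16817 genes from edgeR's trended spread, with 50 genes changed at each fold and the rest unchanged. The procedure called 40% of genes simulated with a 1.2-fold change. It called 66%, 82% and 98% of those simulated with 1.5-, 2- and 4-fold changes, and made 3 false calls. Far fewer genes changed there than were called in the data (32.4%), so these rates need not hold for the data.

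Named genes are the 10 members, NUP153, up to 4 called genes per list with the smallest p, and the rest of a list where 5 or fewer did not pass. CCND2, CDC25A and further genes of the ubiquitin ligase and E2F lists were named after their values were seen. Members and lists were chosen with earlier results of these data known. Lists received no set test.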

Additional observations from a re-analysis of the deposited data

How the results depend on the processing

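The 10 alternatives were: RLE size factors, total-count scaling, no filter on low counts, a mean of 5 CPM or more, DESeq2 1.42.0, a replicate block, and leaving out each library. Over the 10 genes, 95 of 100 values kept their side of the threshold, 2 lost a call (CDK1) and 3 gained one (CCNB1), all given above. CCND1 ranged from 0.67 to 0.76, CDK6 from 0.19 to 0.33, CCNE1 from −0.56 to −0.43 and CCNA2 from −0.42 to −0.33, and none of these lost its call under the 10 alternatives. Of all genes, 2521 rose and 2927 fell; leaving out 1 library gave 1303 to 2327 risen and 1769 to 2874 fallen, and DESeq2 gave 1442 risen. The lowest counts were those without shNUP153 replicate 1. Total-count scaling moved the median of all genes to 0.07 and gave 3562 risen and 2116 fallen (62.7% of calls higher, against 46.3%). Leaving out 1 library kept the sign of all 5 pair differences, of which CDK1 over CDK2 ranged from 0.033 to 0.23. Replicate numbers are shared between groups, but deviations of same-numbered libraries correlated at −0.007, so the numbers were not taken to pair them. With the replicate block 2530 genes rose and 2935 fell, and 2 of the 10 genes rose and 6 fell, as without it. CCNE1 and CCNE2 had the lowest counts of the 10 genes, 378 to 647 per library, and the largest SE, 0.09 and 0.10.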
